A study of Graphilbum sp. with 6 samples.

Results

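A spore germination protein, a sporulation protein and a conidiophore protein were followed in hyphae of Graphilbum sp., a filamentous fungus of the order Ophiostomatales, with and without the pine wilt nematode. The first is annotated as a spore germination protein (TRINITY_DN265_c0_g2, best hit in Grosmannia clavigera). The others are sporulation-specific protein 5 (TRINITY_DN517_c0_g1) and the conidiophore development protein HymA (TRINITY_DN4113_c1_g3), both with a best hit in Ophiostoma piceae. These are 3 of the 26694 assembled features in the table and 3 of the 4613 features whose best hit lies in Sporothrix, Grosmannia, Ophiostoma or Esteya, here called the class. They were picked by feature name with nematode and control values of these libraries in view, so those values are a description of the 3 genes and carry no test.

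The nematode group is 3 libraries from mycelium kept for 24 h with about 300 Bursaphelenchus xylophilus, the pine wilt nematode, which feeds on fungal hyphae. The control group is 3 libraries labelled 24 h without nematodes. In both groups the fungus had been grown for 5 days at 28 °C on potato dextrose agar and then rinsed with phosphate-buffered saline. The series text calls the replicates biological without saying what made them separate, so the spread between them may be partly technical, and the labels do not say whether the mycelium had formed spores.

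Fungi of this order form asexual spores, called conidia, on stalks called conidiophores, and sexual ascospores in fruiting bodies. Many of them are carried between trees by bark beetles as spores in sticky drops. In the mould Aspergillus nidulans, HymA is needed for normal conidiophores. It belongs to the Mo25 family of scaffold proteins, and its homologue Hym1 in budding yeast works with the NDR kinase Cbk1 in cell separation and polarized growth. Sporulation-specific protein 5 is also the name of Spo5 of the fission yeast Schizosaccharomyces pombe, an RNA-binding protein needed for meiosis and spore formation. The description of the spore germination protein names no known function.

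The class made up 28.7%, 39.4% and 38.4% of TPM in nematode replicates 1 to 3, against 68.5%, 69.4% and 70.0% in control replicates 1 to 3. The rest of the nematode libraries was largely 13300 features with at least 1 TPM in every nematode library and under 1 TPM in every control. Each library was therefore divided by the median ratio of the class, and levels below are in these rescaled TPM unless they are called deposited. In rescaled values, control replicate 3 stood apart. Its median absolute log2 difference from control replicates 1 and 2 over the 4568 class features tested was 0.34 and 0.38, while control replicates 1 and 2 differed by 0.093 and the nematode pairs by 0.12 to 0.17. Control replicate 3 was the control farthest from the median of its group in 75.9% of these features. The labelled tissue was checked against 6 class features described as septins or chitin synthases, which shape hyphal septa and walls. The most abundant septin (TRINITY_DN17548_c0_g1) averaged 275 ± 23.6 rescaled TPM in nematode libraries and 257 ± 16.8 in control libraries (SD, n = 3 each). The only feature described as the Woronin body major protein, which plugs septal pores in filamentous ascomycetes, had its best hit outside the class (TRINITY_DN8784_c0_g1). It was listed at 0 TPM in all 3 nematode libraries and at 6.07, 4.77 and 0.17 deposited TPM in control replicates 1 to 3. The only glucan synthase matched (TRINITY_DN14144_c0_g1), also outside the class, had 0 TPM with nematodes and 2.97, 0 and 0 deposited TPM in controls. A septin (TRINITY_DN13449_c0_g1) and a chitin synthase (TRINITY_DN18386_c0_g1) outside the class were likewise at 0 with nematodes. Another such septin (TRINITY_DN4953_c0_g1) had 56.8, 36.6 and 48.2 deposited TPM with nematodes and 0 in controls. Whether these transcripts came from Graphilbum was not tested. Words for nematode proteins such as vitellogenin matched 0 descriptions, among 13460 features with a description. Best hits outside the class in the word lists used below were all fungal. This search could therefore not show whether nematode RNA was present.

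Of the 3 genes, the spore germination protein was the most variable, and its control libraries spanned its nematode libraries. It had 50.8, 48.2 and 89.1 rescaled TPM in nematode replicates 1 to 3, against 134, 219 and 26.4 in control replicates 1 to 3. The highest libraries were control replicates 1 and 2 and the lowest was control replicate 3, below every nematode library, so the groups overlapped. Its mean was 62.7 ± 22.9 rescaled TPM in nematode libraries and 126 ± 96.6 in control libraries (SD, n = 3 each). The log2 fold change was -0.61, with 2.71% of the class further down. Measured on the log2 scale, its controls ranged over 3.01, more than in 99.8% of the class, and its nematode libraries over 0.87, more than in 95.4%. In linear terms the highest control was 8.32-fold above the lowest, and the highest nematode library 1.85-fold above the lowest.

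Single controls moved the value of this gene. For control replicate 3, the log2 difference from the mean of control replicates 1 and 2 was -2.66, and 0.0438% of the class lay further down in the same measure. Without control replicate 3, the log2 fold change was -1.49, with 0.132% of the class further down. Without control replicate 2, the highest library, it was 0.0064, so the direction of the difference rested on that control. Omission of nematode replicate 3, the highest nematode library, gave -0.89, and omission of nematode replicate 1 or 2 gave -0.49 and -0.44. Without control replicate 1 it was -0.35.

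Sporulation-specific protein 5 was the least abundant of the 3 genes and was even among the nematode libraries. It had 17.3, 15.9 and 16.2 rescaled TPM in nematode replicates 1 to 3, against 29.8, 27.8 and 14.7 in control replicates 1 to 3. Control replicates 1 and 2 were high, while control replicate 3 lay just under the nematode libraries, so the groups overlapped here too. The mean was 16.4 ± 0.764 rescaled TPM in nematode libraries and 24.1 ± 8.18 in control libraries (SD, n = 3 each), a log2 fold change of -0.47 with 4.71% of the class further down. Its nematode range of 0.12 on the log2 scale exceeded that of 17.1% of the class, and its control range of 0.97 exceeded that of 88.0%. The log2 difference of control replicate 3 from the mean of the other controls was -0.92, with 3.22% of the class further down. Without that library the log2 fold change was -0.77, with 1.78% of the class further down. The other omissions gave -0.50 to -0.29.

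HymA was the most abundant of the 3 genes and the steadiest among controls. It had 155, 144 and 173 rescaled TPM in nematode replicates 1 to 3, against 176, 194 and 182 in control replicates 1 to 3. All nematode libraries lay below all controls, with nematode replicate 3 and control replicate 1 next to each other. Of the class features tested, 7.79% had nematode libraries entirely below the controls in the same way. The mean was 157 ± 14.9 rescaled TPM in nematode libraries and 184 ± 9.27 in control libraries (SD, n = 3 each). The log2 fold change was -0.23, with 17.0% of the class further down. The log2 difference of control replicate 3 from the mean of the other controls was -0.025, near the class median of 0.015, and the log2 fold change without it was -0.23. The separation of the groups depended on the scaling. After quantile normalization within the class, nematode replicate 3 had 174 and control replicate 3 had 173 rescaled TPM, and with equal class totals nematode replicate 3 had 179 and control replicate 1 had 172, so that the groups overlapped.

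**Figure D1:**
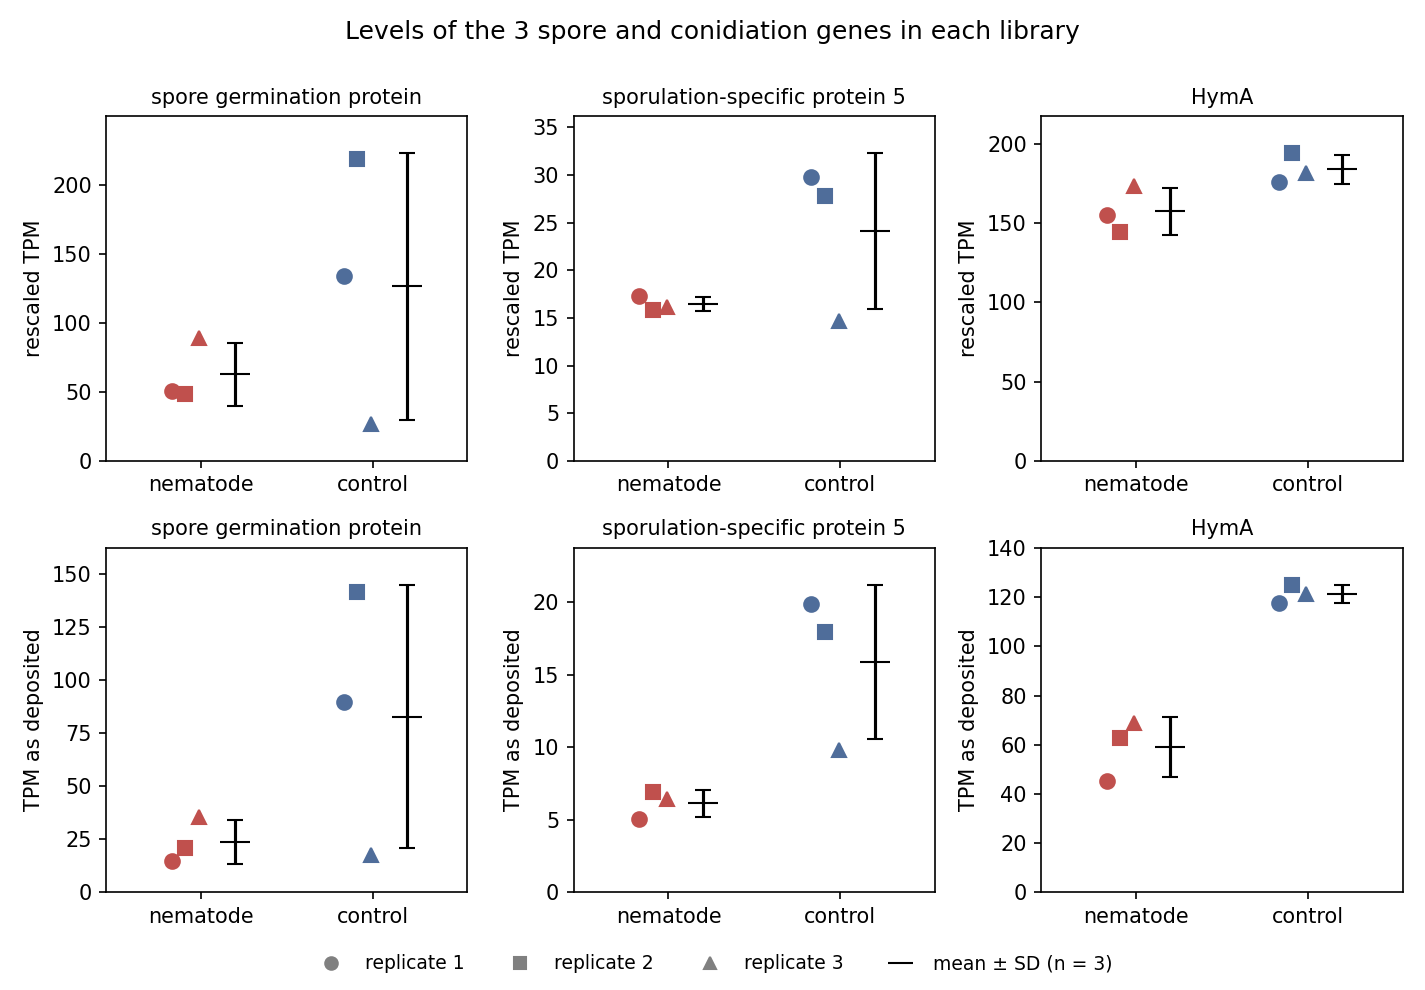
Levels of the spore germination protein, sporulation-specific protein 5 and HymA in rescaled TPM (upper row) and deposited TPM (lower row), with nematode libraries in red and control libraries in blue, each point a library and the bar the mean ± SD (n = 3). Control replicate 3 (triangle) lies at 26.4 and 14.7 rescaled TPM for the spore germination protein and sporulation-specific protein 5, under the nematode libraries, and at 182 for HymA, among the other controls.

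**Figure D2:**
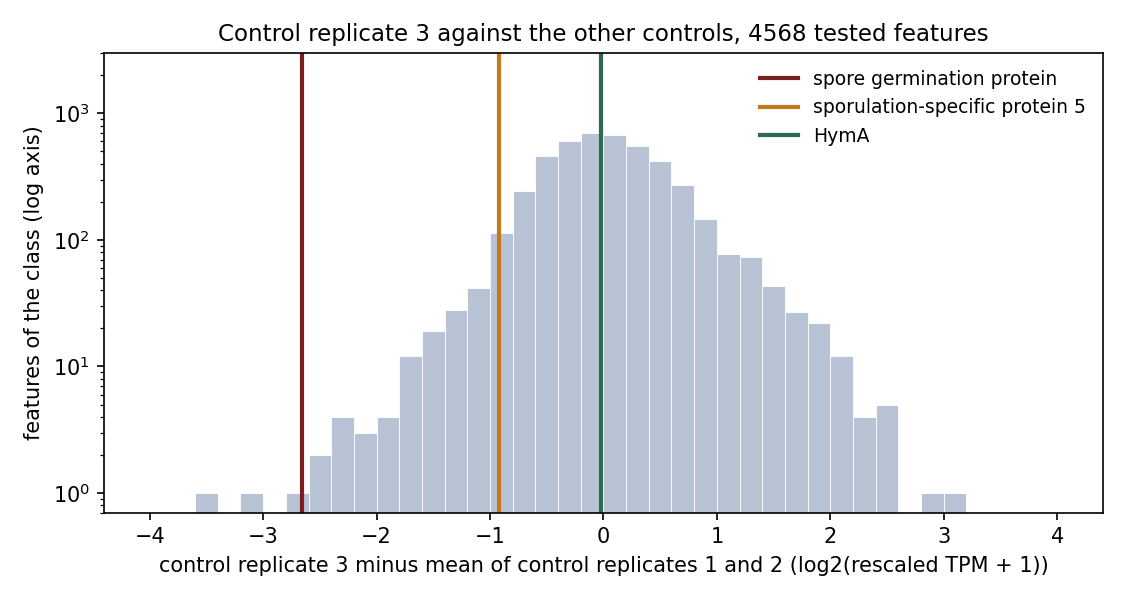
Number of class features (log axis) by the log2 difference of control replicate 3 from the mean of control replicates 1 and 2, with the 3 genes as vertical lines. The spore germination protein lies at -2.66 in the lower tail, sporulation-specific protein 5 at -0.92 and HymA at -0.025 near the middle.

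In TPM as deposited, all 3 genes stood lower with nematodes by a wider margin. The spore germination protein had 14.9, 21.0 and 35.4 deposited TPM in nematode replicates 1 to 3, against 89.5, 141 and 17.6 in control replicates 1 to 3, and the groups overlapped through control replicate 3. Sporulation-specific protein 5 had 5.06, 6.91 and 6.42 deposited TPM in nematode libraries, against 19.9, 17.9 and 9.85 in control libraries, with no overlap. HymA had 45.3, 62.8 and 68.9 deposited TPM in nematode libraries, against 118, 125 and 121 in control libraries, with no overlap. On this scale 81.6% of the class features had nematode libraries entirely below the controls. The log2 fold changes on deposited TPM were -1.41, -1.20 and -1.05 for the spore germination protein, sporulation-specific protein 5 and HymA. The median over the class was -0.82 on the same scale, against -0.027 after rescaling. Relative to that shift, HymA stood nearest to the class as a whole.

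**Figure D3:**
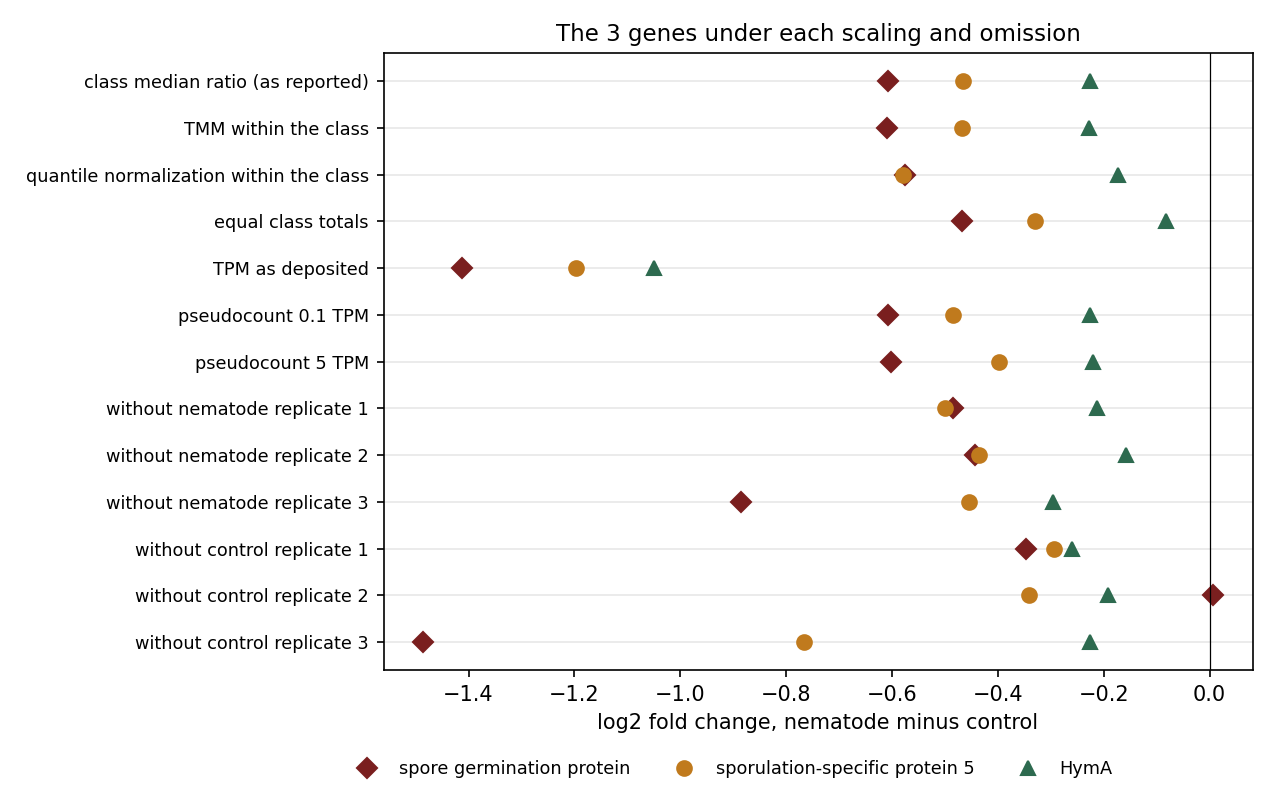
Log2 fold change of the 3 genes, nematode minus control, under each scaling, pseudocount and omission of a library. Points of the spore germination protein run between -1.49 without control replicate 3 and 0.0064 without control replicate 2, while HymA stays between -0.30 and -0.083 in all but the deposited TPM, where it is at -1.05.

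Ratios between the genes within a library, taken from deposited TPM, do not change when a whole library is divided by a factor. The spore germination protein was at 0.328, 0.335 and 0.513 of the level of HymA in nematode replicates 1 to 3, against 0.761, 1.13 and 0.145 in control replicates 1 to 3. It exceeded HymA in control replicate 2 alone, and the ratio in control replicate 3 was the lowest of the 6. HymA was 8.94, 9.09 and 10.7 times as abundant as sporulation-specific protein 5 in nematode libraries, against 5.91, 6.97 and 12.3 times in control libraries. Here too control replicate 3 lay on the far side of the nematode libraries from the other controls. Relative to sporulation-specific protein 5, the spore germination protein was 2.94, 3.04 and 5.51 times as abundant in nematode libraries, against 4.50, 7.87 and 1.79 times in control libraries. HymA was therefore the highest of the 3 in 5 of 6 libraries, and sporulation-specific protein 5 the lowest in all 6. Among the class, HymA ranked above 74.2% of features by its nematode mean and above 76.9% by its control mean. For the spore germination protein this was 45.8% of features by its nematode mean and 66.9% by its control mean. Sporulation-specific protein 5 ranked above 15.9% by its nematode mean and above 21.8% by its control mean.

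Among nematode libraries, replicate 1 held the smallest share of class TPM, and deposited values of the 3 genes were lowest there. The log2 ratio of nematode replicate 1 to the mean of replicates 2 and 3 was -0.92 for the spore germination protein, -0.40 for sporulation-specific protein 5 and -0.54 for HymA. The class had a median of -0.52 in this ratio, with -0.91 and -0.17 at its 5th and 95th percentiles, while the 13300 features under 1 TPM in every control had a median of 0.38. In this ratio all 3 genes lay on the side of the class, the spore germination protein at its lower end.

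Over the 6 libraries, the spore germination protein and sporulation-specific protein 5 shared the drop in control replicate 3. Their profiles had a Pearson r of 0.86, as a description over 6 libraries that share their scaling, against 0.49 between the spore germination protein and HymA and 0.50 between sporulation-specific protein 5 and HymA. Likeness was also measured as the root mean square difference of log2 profiles, each centred on its own mean. In this measure sporulation-specific protein 5 was nearer to HymA, at 0.34, than to the spore germination protein, at 0.69. The spore germination protein and HymA differed by 0.94. Other genes were compared in the same measure, among 2960 annotated class features. Nearest to the spore germination protein was the meiosis-specific topoisomerase Spo11 (TRINITY_DN2263_c0_g1), which makes the DNA breaks that start meiotic recombination, at a difference of 0.39. Spo11 had 17.6, 14.8 and 32.2 rescaled TPM in nematode replicates 1 to 3, against 32.6, 47.3 and 12.6 in control replicates 1 to 3. The order of its libraries was alike, with control replicate 2 highest and control replicate 3 lowest. It was followed by an ethanolamine utilization protein (TRINITY_DN617_c1_g1) and an NPP1 domain protein (TRINITY_DN1980_c0_g1), at 0.41 and 0.43. The ethanolamine utilization protein was far more abundant, with 3379, 1741 and 3183 rescaled TPM in nematode replicates 1 to 3, against 5186, 8567 and 1912 in control replicates 1 to 3.

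Sporulation-specific protein 5 had closer neighbours. A putative O-sialoglycoprotein endopeptidase (TRINITY_DN19893_c0_g1) differed by 0.075, a bacterial alpha-L-rhamnosidase domain protein (TRINITY_DN22172_c0_g1) by 0.089 and an alpha beta hydrolase fold protein (TRINITY_DN1509_c0_g1) by 0.091. The first of these had 75.9, 68.3 and 81.9 rescaled TPM in nematode replicates 1 to 3, against 130, 126 and 66.1 in control replicates 1 to 3. Control replicate 3 was again the lowest library. HymA had the closest neighbours of all, a nuclease A inhibitor-like protein (TRINITY_DN4038_c0_g1) at 0.036, GTP cyclohydrolase II of riboflavin synthesis (TRINITY_DN1012_c0_g2) at 0.037 and a vacuolar sorting-associated protein (TRINITY_DN1764_c0_g2) at 0.056. GTP cyclohydrolase II had 348, 311 and 375 rescaled TPM in nematode replicates 1 to 3, against 371, 441 and 401 in control replicates 1 to 3. A flat profile such as that of HymA lies near many features, so a small difference marks little variation as much as likeness.

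**Figure D4:**
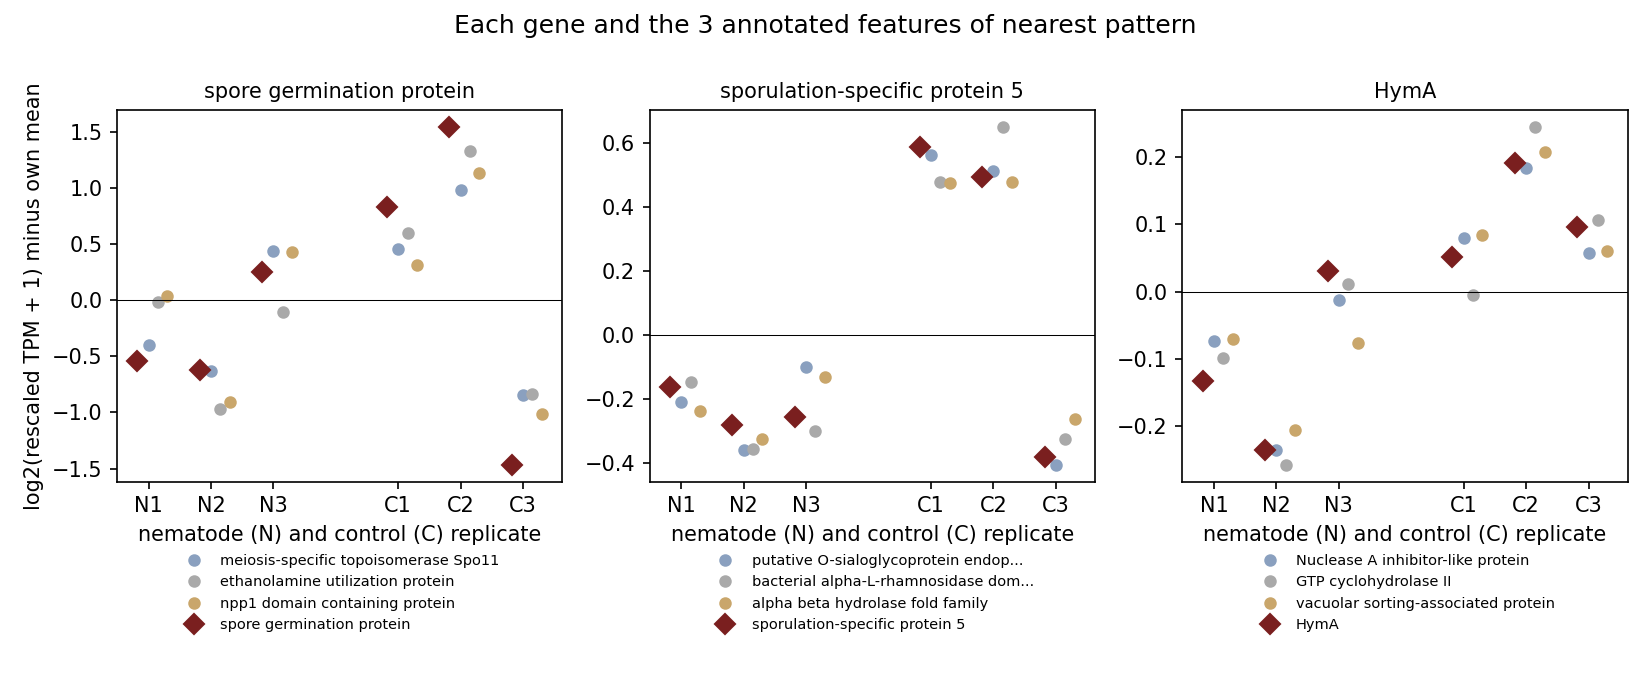
Log2(rescaled TPM + 1) of each gene (diamonds) and of the 3 annotated class features nearest to it (circles), centred on their own means, in nematode (N1 to N3) and control (C1 to C3) replicates. The vertical scales differ: the spore germination protein and its neighbours, Spo11 among them, are lowest in control replicate 3 or nematode replicate 2 and highest in control replicate 2.

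Other genes of sporulation and germination were taken from word lists. In bulk hyphae, fewer cells of a kind and less RNA per cell cannot be told apart, for these genes and for the 3 above. Across 7 lists, 57 other class features matched and 55 could be tested. None passed in either direction (limma, adjusted p over the whole class), 10 had an unadjusted p under 0.05, and limma with robust variances or without a trend gave 0 as well. In the class, 30 of 4568 features passed (0.657%; 0.613% higher and 0.0438% lower) and 494 had an unadjusted p under 0.05. The 55 features had a median log2 fold change of 0.07, against -0.027 over the class. Nematode libraries lay entirely above the controls in 8 of them and entirely below in 2, where the class had 10.5% above and 7.79% below. The direction depended on whether libraries were scaled to the class. On deposited TPM, all 18 list features named for their level with a log2 fold change above 0 had a value below 0. The same 18 stayed above 0 after quantile normalization within the class and with equal class totals. Without control replicate 3, 629 of 4552 class features passed (13.8%; 7.67% higher and 6.15% lower), and so did 7 of the 55 list features, 6 higher and 1 lower. Omission of any other single library gave 0 calls in every list, so the calls named below rest on leaving out that control.

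Among regulators of conidiation, 0 of 5 passed, and their log2 fold changes ran between -0.13 and 0.39. An APSES-type transcription regulator (TRINITY_DN4868_c0_g1), of the family that holds StuA of Aspergillus, averaged 27.3 ± 1.80 rescaled TPM in nematode libraries and 20.6 ± 1.53 in control libraries (SD, n = 3 each). Its libraries did not overlap between the groups, at 25.9 to 29.3 with nematodes and 18.8 to 21.5 in controls, and its log2 fold change of 0.39 ± 0.12 SE had an adjusted p of 0.292 (limma), against -0.39 on deposited TPM. LaeA, a methyltransferase-like regulator of secondary metabolism and development in Aspergillus (TRINITY_DN388_c0_g1), averaged 131 ± 7.27 in nematode libraries and 129 ± 17.5 in control libraries (SD, n = 3 each). The other APSES factor (TRINITY_DN959_c0_g1), the vib-1 regulator (TRINITY_DN17351_c0_g1) and a developmental regulator (TRINITY_DN2609_c0_g1) had log2 fold changes of 0.17, 0.12 and -0.13. The names brlA, abaA, wetA, vosA, velB, veA, fluG, stuA, medusa and fluffy, and the word velvet, matched 0 descriptions. Of the 26694 features, 13460 had a description, so genes with these names may be present without one.

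All 3 features of the spore surface and pigment list had log2 fold changes under 0, where the class median was also under 0 at -0.027, and 0 passed. Tetrahydroxynaphthalene reductase of melanin synthesis (TRINITY_DN772_c0_g1) had 30.0, 28.1 and 31.1 rescaled TPM in nematode replicates 1 to 3, against 34.1, 37.9 and 39.9 in control replicates 1 to 3. The groups did not overlap, and the log2 fold change was -0.32 ± 0.11 SE with an adjusted p of 0.354 (limma). Scytalone dehydratase of the same pathway (TRINITY_DN4246_c0_g2) averaged 4.37 ± 1.39 rescaled TPM in nematode libraries and 6.99 ± 1.30 in control libraries (SD, n = 3 each), with an adjusted p of 0.464 from limma. Chitin deacetylase 1 (TRINITY_DN9721_c0_g3) is of a family that makes chitosan for the spore wall in budding yeast. It averaged 1.20 ± 1.01 rescaled TPM in nematode libraries and 1.89 ± 0.496 in control libraries (SD, n = 3 each). Its groups overlapped, with the highest value, 2.36, in nematode replicate 1, and the adjusted p was 0.723 (limma). The only feature described as a hydrophobin (TRINITY_DN17785_c0_g1), a coat protein of fungal spores, had its best hit in Clonostachys rosea. It was listed at 0 TPM in all 3 nematode libraries, against 0.91, 11.4 and 0 deposited TPM in control replicates 1 to 3. Whether this transcript came from Graphilbum was not tested.

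Of the storage carbohydrates of spores, trehalose and mannitol, 3 enzymes were tested and 0 passed. Mannitol-1-phosphate dehydrogenase, which acts in mannitol synthesis (TRINITY_DN844_c0_g2), had 258, 280 and 250.0 rescaled TPM in nematode replicates 1 to 3, against 207, 177 and 230 in control replicates 1 to 3. The groups did not overlap, and the log2 fold change was 0.37 ± 0.12 SE with an adjusted p of 0.338 (limma), against -0.47 on deposited TPM. It passed without control replicate 3, with a log2 fold change of 0.46 (limma, adjusted p = 0.0284). A trehalose phosphate synthase subunit (TRINITY_DN5235_c0_g2) averaged 238 ± 30.2 rescaled TPM in nematode libraries and 229 ± 65.9 in control libraries (SD, n = 3 each). Trehalase, which splits trehalose at germination (TRINITY_DN5976_c0_g1), averaged 78.4 ± 6.51 in nematode libraries and 72.4 ± 9.06 in control libraries (SD, n = 3 each). Outside the class, 6 features matched this list. A mannitol 2-dehydrogenase among them (TRINITY_DN8028_c0_g1) had 69.0, 107 and 99.0 deposited TPM in nematode libraries, against 183, 158 and 146 in control libraries. The others were listed at 0 TPM in all 3 nematode libraries. Whether these came from Graphilbum was not tested.

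Meiosis and sexual development gave the longest list, with 0 of 23 past the threshold and a median log2 fold change of 0.03. Spo11 had a log2 fold change of -0.39 ± 0.49 SE (limma, adjusted p = 0.816). A sexual development protein (TRINITY_DN643_c0_g1) averaged 225 ± 13.3 rescaled TPM in nematode libraries and 247 ± 17.0 in control libraries (SD, n = 3 each). Ste23, a protease that matures a mating pheromone in budding yeast (TRINITY_DN1444_c0_g1), averaged 237 ± 38.2 in nematode libraries and 175 ± 12.1 in control libraries (SD, n = 3 each). Its libraries did not overlap between the groups, with a log2 fold change of 0.43 (adjusted p of 0.319 from limma), against -0.40 on deposited TPM. Several features matched by words alone. Swi10 proteins, which act in DNA repair, are named for mating-type switching. The first of them (TRINITY_DN20007_c0_g1) averaged 401 ± 15.8 rescaled TPM in nematode libraries and 391 ± 41.1 in control libraries (SD, n = 3 each). The Swi10-like feature (TRINITY_DN3389_c0_g3) had 356, 365 and 324 rescaled TPM in nematode replicates 1 to 3, against 197, 171 and 384 in control replicates 1 to 3. It was called higher without control replicate 3 (log2 fold change 0.93, limma adjusted p = 0.00346), while over all 6 libraries it had 0.57, or -0.27 on deposited TPM. Control replicate 3, left out there, was its highest library. MAT1 (TRINITY_DN1595_c1_g1) is an assembly factor of a transcription and cell cycle kinase and no mating protein. It had 55.5, 63.0 and 70.4 rescaled TPM in nematode replicates 1 to 3, against 84.7, 115 and 234 in control replicates 1 to 3. Here control replicate 3 was the highest library. MAT1 had an adjusted p of 0.323 (limma), and was called lower without control replicate 3 (log2 fold change -0.64, limma adjusted p = 0.0377).

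HymA homologues work with kinases of cell shape, and this network had 1 class feature. The Mob1 family protein, of the partners that activate such kinases (TRINITY_DN7955_c0_g1), had 69.0, 71.3 and 70.0 rescaled TPM in nematode replicates 1 to 3, against 61.4, 59.5 and 59.3 in control replicates 1 to 3. All nematode libraries lay above all controls, the opposite side from HymA in the same scaling. The log2 fold change was 0.22 ± 0.085 SE with an adjusted p of 0.429 (limma). On deposited TPM it was -0.59, so the side depended on scaling to the class. After quantile normalization within the class it was 0.22, and with equal class totals 0.36. Outside the class, 6 features matched this list, and 5 of them had at least 1 TPM in every nematode library and under 1 TPM in every control, as did 60.2% of all features outside the class. Among them, the kinase Orb6 (TRINITY_DN18574_c0_g1, best hit in Rhizopus microsporus) had 23.8, 15.3 and 18.5 deposited TPM in nematode replicates 1 to 3 and was listed at 0 in all 3 controls. A Mob1 feature (TRINITY_DN1531_c0_g2, best hit in Rhizopus microsporus) had 26.2, 19.8 and 21.9 deposited TPM in nematode libraries and was also listed at 0 in all 3 controls. Whether these transcripts came from Graphilbum was not tested.

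In cAMP and Ras signalling, which acts upstream of germination in model fungi, 0 of 14 features passed. The regulatory subunit of cAMP-dependent protein kinase (TRINITY_DN1030_c0_g1) averaged 270.5 ± 12.7 rescaled TPM in nematode libraries and 327 ± 73.1 in control libraries (SD, n = 3 each). A Ras GTPase (TRINITY_DN8795_c0_g1) averaged 192 ± 7.71 in nematode libraries and 183 ± 14.4 in control libraries (SD, n = 3 each). Adenylyl cyclase-associated protein (TRINITY_DN20_c1_g1) had a log2 fold change of 0.07, and so did the Ras GTPase. Rab7 of vacuolar traffic, matched by the words Ras-like (TRINITY_DN3876_c0_g2), had 0.02. Without control replicate 3, a Ras GTPase activating protein (TRINITY_DN1197_c1_g2) and a type I phosphodiesterase/nucleotide pyrophosphatase (TRINITY_DN1663_c0_g1) were called higher (limma, adjusted p = 0.0238 and 0.0493). The description of the latter does not name cAMP. Nor do those of a glycerophosphodiester phosphodiesterase (TRINITY_DN80_c0_g1) and a PLC-like phosphodiesterase (TRINITY_DN18437_c0_g1) in the same list. Of 44 matching features outside the class, 37 had at least 1 TPM in every nematode library and under 1 TPM in every control, beside 60.2% of all features outside the class. These too were matched by words, and they include Rab proteins and sphingomyelin phosphodiesterases.

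In the hyphal growth list, 0 of 6 passed. A chitin synthase, an enzyme of wall chitin (TRINITY_DN2756_c0_g1), had the smallest adjusted p of all the lists, 0.137 (limma). It had 416, 568 and 437 rescaled TPM in nematode replicates 1 to 3, against 275, 253 and 325 in control replicates 1 to 3. The nematode libraries lay above the controls, with a log2 fold change of 0.73 ± 0.16 SE, against -0.10 on deposited TPM. Without control replicate 3 it was called higher (log2 fold change 0.84, limma adjusted p = 0.0149), as was the less abundant chitin synthase TRINITY_DN495_c0_g1 (log2 fold change 0.78, limma adjusted p = 0.0445). A septin (TRINITY_DN3790_c0_g1) averaged 125 ± 7.09 rescaled TPM in nematode libraries and 106 ± 3.54 in control libraries (SD, n = 3 each), with an adjusted p of 0.429 from limma and a log2 fold change of 0.23, against -0.59 on deposited TPM. Another abundant septin (TRINITY_DN2435_c0_g1) had a log2 fold change of 0.08, and of -0.74 on deposited TPM.

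**Figure D5:**
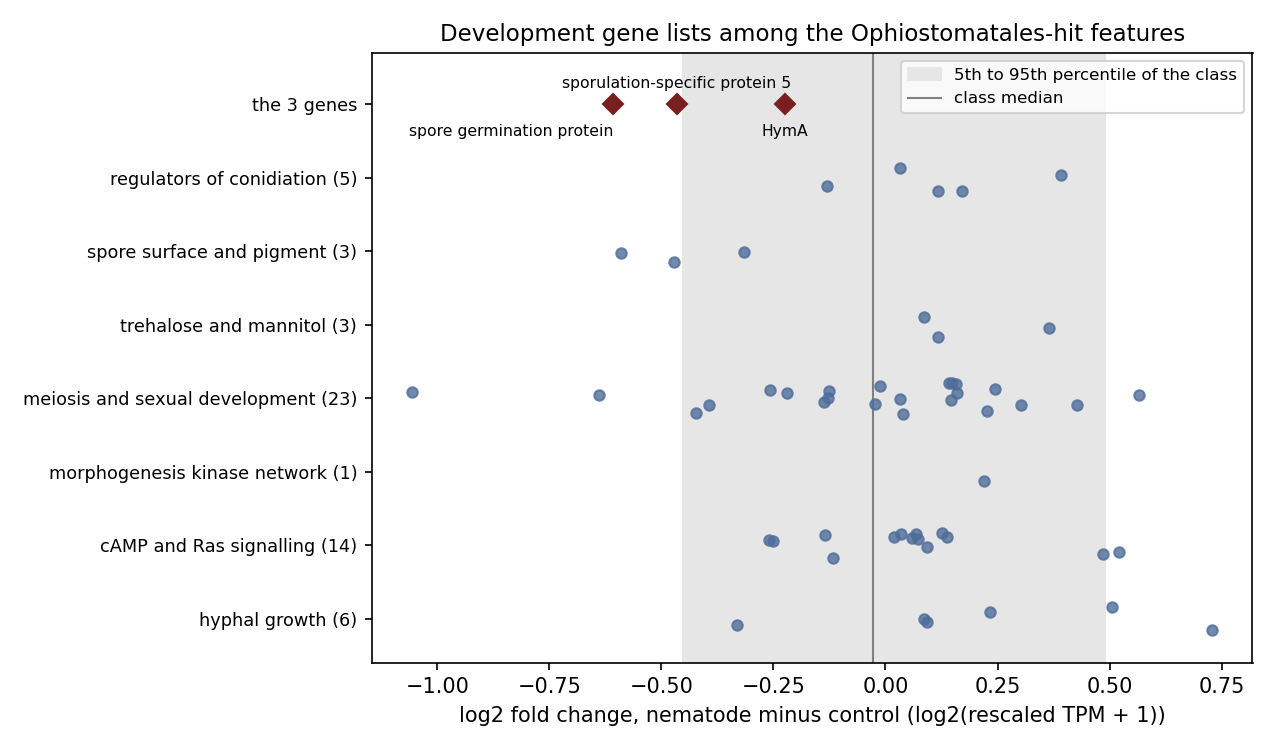
Log2 fold change, nematode minus control on log2(rescaled TPM + 1), of the 3 genes (diamonds) and of each tested feature of the 7 lists (circles, with the number tested beside each name), over the 5th to 95th percentile of the class (grey band, -0.45 to 0.49). The spore germination protein and sporulation-specific protein 5 lie at -0.61 and -0.47, just below the band, and HymA at -0.23 within it.

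Beyond the class, the only other feature named for spores was Round spore (TRINITY_DN5179_c0_g1), after a gene of Neurospora crassa that sets the shape of ascospores. It had 1.84, 3.18 and 2.26 deposited TPM in nematode replicates 1 to 3, against 5.23, 4.20 and 4.53 in control replicates 1 to 3. Divided by the factors of the class, it had 6.29, 7.30 and 5.69 rescaled TPM in nematode replicates 1 to 3, against 7.82, 6.52 and 6.77 in control replicates 1 to 3, and the groups overlapped. Among the 13460 features with a description, no other carried that of any of the 3 genes.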

How the data were processed

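The authors deposited 1 table of TPM values (a library's share of transcripts, corrected for their length) for the 6 libraries. Its group means were not used. How reads were assembled and quantified is not given in the sources used here. TPM keeps no read depth, so no counting interval is given.

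The scaling factor of a library was the median, over Ophiostomatales-hit features, of its ratio to the geometric mean of the libraries, and class totals were set to average 1e+06 (rescaled TPM). Features with at least 1 rescaled TPM in at least 3 libraries were fitted as log2(rescaled TPM + 1) with limma 3.58.1 in R 4.3.3 (mean-variance trend), nematode minus control, Benjamini-Hochberg adjustment over the whole class and a threshold of 0.05. A fold change on this scale understates that of features with low TPM. The script was tested on simulated data with the same noise in every library. These held no outlying library such as control replicate 3, so the test does not cover that trait.

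The 3 genes and the word lists were chosen with earlier results of these data known, so the 3 genes get no test. Named list features are those past the threshold (at most 4 a list) and the 4 of highest mean level. Others were named for their values, chosen after these were seen. Nearest patterns came from annotated features averaging at least 10 rescaled TPM. Alternatives were other pseudocounts, filters, scalings, eBayes settings, a replicate block and the omission of each library.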

Additional observations from a re-analysis of the deposited data

How the results depend on the processing

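Deviations of same-numbered nematode and control libraries from their group means had an r of 0.15, -0.43 and -0.28 for replicates 1 to 3. Libraries of unlike number gave between -0.23 and 0.41. These values cannot show whether same-numbered libraries were prepared together. A replicate block gave 12 calls in the class in place of 30. Equal class totals gave 48 calls and moved HymA (TRINITY_DN4113_c1_g3) to -0.083, with a class median of 0.11. Omission of 1 library gave between 7 and 629 calls, the highest without control replicate 3. The same omissions gave 0 to 1 calls in trehalose and mannitol, 0 to 2 in meiosis and sexual development, 0 to 2 in cAMP and Ras signalling and 0 to 2 in hyphal growth. All of these list calls came without control replicate 3. The cause of these shifts was not tested.

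TPM as deposited gave 3721 calls among 4463 class features, 3695 of them lower. It moved sporulation-specific protein 5 (TRINITY_DN517_c0_g1) to -1.20 and HymA to -1.05. List calls, all lower, were 4 of 5 for regulators of conidiation, 2 of 2 for spore surface and pigment and 2 of 3 for trehalose and mannitol. Meiosis and sexual development had 15 of 22, also all lower, and the morphogenesis kinase network 1 of 1. In cAMP and Ras signalling 10 of 14 were called lower, and in hyphal growth 4 of 6. Log2 fold changes turned negative and passed in 13 named features: TRINITY_DN388_c0_g1 (-0.79), TRINITY_DN959_c0_g1 (-0.64), TRINITY_DN17351_c0_g1 (-0.64), TRINITY_DN5235_c0_g2 (-0.74), TRINITY_DN5976_c0_g1 (-0.70), TRINITY_DN20007_c0_g1 (-0.79), TRINITY_DN7955_c0_g1 (-0.59), TRINITY_DN3876_c0_g2 (-0.81), TRINITY_DN8795_c0_g1 (-0.76), TRINITY_DN20_c1_g1 (-0.75), TRINITY_DN17548_c0_g1 (-0.74), TRINITY_DN2435_c0_g1 (-0.74) and TRINITY_DN3790_c0_g1 (-0.59). A further 5 named features turned negative without passing: TRINITY_DN4868_c0_g1 (-0.39), TRINITY_DN844_c0_g2 (-0.47), TRINITY_DN3389_c0_g3 (-0.27), TRINITY_DN1444_c0_g1 (-0.40) and TRINITY_DN2756_c0_g1 (-0.10). The class median was -0.82 on this scale, which sums to 1e+06 over all features of a library. Read depth is unknown, so its limit on low features cannot be given.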
